A study of Mus musculus with 10 samples.

Results

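Ribosome biogenesis genes are described here across newly made RNA and the binding of KLF3 and KLF1 in mouse erythroid cell lines. The group was set by name: genes whose symbol is Nop, Nol, Utp, Rrp or Tsr followed by digits and an optional letter, the RNA polymerase I genes Polr1a to Polr1e, and 13 further nucleolar genes such as Npm1, Ncl, Fbl and Pes1. It holds 54 of the 23309 named genes of the RNA table, and 52 of these were among the 9619 genes that the authors tested. The 2 untested genes, Nol3 and Nol4, match the name pattern but are best known outside ribosome assembly, Nol3 as an inhibitor of cell death.

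The RNA libraries came from J2E, an immortalised erythroid line from fetal liver, and from J2E-KLF3-ER. The latter is the same line carrying KLF3 joined to an estrogen receptor domain that 4-hydroxytamoxifen activates. J2E lacks this fusion transgene. RNA made during a 30 minute pulse of 500 µM 4-thiouridine (4sU) was captured from 3 libraries per line. Each J2E-KLF3-ER library is 1 clone (A, C or E) given 200 nM tamoxifen. Of the J2E libraries, replicates 1 and 2 received tamoxifen and replicate 3 received ethanol vehicle. For chromatin, cells were treated with 200 nM tamoxifen for 3 h. KLF3 was immunoprecipitated through the receptor domain from clone C, and KLF1 with a KLF1 antibody from K1-ER clones A and C, which are Klf1-null erythroblasts with a tamoxifen-inducible KLF1-ER transgene. Line, clone and transgene differ together between the RNA groups and cannot be told apart. Tamoxifen was given to every RNA library except J2E replicate 3, so the drug differs between the groups only through that library. The RNA table gives 1 pooled FPKM value per group, so no spread between libraries can be set beside a level and the depth is unknown. The p-values rest on these libraries alone, and how they were computed was not given in the sources used here. Scatter among the libraries includes differences of clone in J2E-KLF3-ER and of treatment in J2E. Whether J2E replicates 1 and 2 are separate cultures is not stated in the labels.

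Ribosomes are built in the nucleolus. RNA polymerase I copies the ribosomal DNA into a long precursor, small nucleolar ribonucleoproteins (snoRNPs) guide its methylation and pseudouridylation, and a large assembly called the small subunit processome folds and cuts the part that becomes 18S RNA. A separate line of factors matures the large subunit, with the Pes1, Bop1 and Wdr12 proteins acting as one complex. The growth regulator MYC is a well known activator of these genes. Early erythroid cells make many ribosomes to support globin synthesis, and inherited defects in ribosome production cause anaemia. KLF3 is a transcriptional repressor and KLF1 the main erythroid activator of the Krüppel-like factor family, and both recognise CACCC-type DNA.

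Klf3 RNA was higher in the line said to carry the fusion, at 7.46 FPKM for J2E and 180 for J2E-KLF3-ER per the authors' deposited table. That row cannot tell the fusion from the line's own Klf3 and gives no protein level. Of 13 erythroid markers, 11 had a row of their own, at 6.21 to 133 FPKM in J2E. Hba-a1 and Hbb-b1 were listed only together with a near copy. The summed level of the 11 was 688 in J2E and 481 in J2E-KLF3-ER. Of them only Alas2 was listed higher in J2E-KLF3-ER, at 6.21 and 9.28 FPKM, and Tfrc was nearly even at 102 and 101. Klf1 was called as falling, from 122 to 55.6 FPKM (log2 fold change -1.14, q = 0.00408 per the authors' deposited table). Per the authors' deposited table, the 4 lymphoid and 3 mast cell markers summed to 0.792 and 0.0249 FPKM in J2E and to 0.68 and 0.194 in J2E-KLF3-ER, with Mcpt8 at 0 in both lines. The 6 myeloid markers summed to 30.6 and 23.6 FPKM, most of it Csf1r. Among megakaryocyte markers, the authors' deposited table has Itga2b at 75 and 80.8 FPKM, Pf4 at 80.1 and 92.4, and Gp1bb at 0.0811 and 0. Whether these differences between the lines bear on the values below was not tested. In such bulk libraries, fewer cells of a type and less RNA per cell cannot be told apart.

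Promoter sequences are shown for 6 members, so that binding and RNA level can be read beside the DNA before the start. A KLF3 peak need not lie within the stretch shown. The first 4 carried the highest KLF3 peaks among members with a sequence entry, and the last 2 had the largest RNA differences. Each is the stretch of 250 bases before the annotated start, 5′ to 3′ on the gene's strand, from RefSeq on GRCm38.p6. Capitals mark CACCC, which reads GGGTG where it lies on the opposite strand, and CACGTG, the palindromic E-box that MYC can bind.
Utp18: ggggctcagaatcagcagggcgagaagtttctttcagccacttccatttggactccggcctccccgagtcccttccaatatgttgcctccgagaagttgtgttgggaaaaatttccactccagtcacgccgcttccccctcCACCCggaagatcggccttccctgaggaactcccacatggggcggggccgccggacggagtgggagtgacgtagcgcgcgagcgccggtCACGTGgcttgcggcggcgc
Nol11: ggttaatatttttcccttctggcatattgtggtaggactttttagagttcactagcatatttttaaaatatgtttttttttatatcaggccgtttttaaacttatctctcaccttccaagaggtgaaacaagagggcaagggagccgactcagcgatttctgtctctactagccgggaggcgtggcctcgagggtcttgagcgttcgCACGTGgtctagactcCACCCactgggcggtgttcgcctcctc
Dkc1: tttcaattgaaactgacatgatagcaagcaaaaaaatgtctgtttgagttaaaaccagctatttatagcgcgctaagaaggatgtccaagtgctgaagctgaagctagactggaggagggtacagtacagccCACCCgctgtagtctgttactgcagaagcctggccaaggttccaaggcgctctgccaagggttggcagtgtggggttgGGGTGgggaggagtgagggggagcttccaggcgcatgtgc
Polr1e: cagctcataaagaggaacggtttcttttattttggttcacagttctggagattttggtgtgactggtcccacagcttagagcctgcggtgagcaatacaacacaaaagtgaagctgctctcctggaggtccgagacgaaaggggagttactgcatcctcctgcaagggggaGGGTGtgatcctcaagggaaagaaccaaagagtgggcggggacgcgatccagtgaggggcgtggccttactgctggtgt
Nol8: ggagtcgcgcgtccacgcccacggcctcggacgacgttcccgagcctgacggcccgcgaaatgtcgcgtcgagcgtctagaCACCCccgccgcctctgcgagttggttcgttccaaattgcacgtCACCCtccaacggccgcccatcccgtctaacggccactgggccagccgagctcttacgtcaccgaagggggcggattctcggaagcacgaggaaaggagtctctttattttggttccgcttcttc
Imp4: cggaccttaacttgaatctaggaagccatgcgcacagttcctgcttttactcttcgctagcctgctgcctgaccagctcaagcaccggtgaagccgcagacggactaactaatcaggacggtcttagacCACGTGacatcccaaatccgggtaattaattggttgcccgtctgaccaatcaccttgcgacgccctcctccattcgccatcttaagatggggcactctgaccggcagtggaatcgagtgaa

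The upstream stretch of Utp18 on chr11:93885767-93886016 (minus strand) held 1 CACCC and 1 CACGTG, their first bases 109 and 20 bases before the start. The Nol11 stretch on chr11:107189382-107189631 (minus strand) held 1 of each as well, 27 and 43 bases before the start. The Dkc1 stretch on chrX:75095604-75095853 (plus strand) held 2 CACCC matches, and that of Polr1e on chr4:45018359-45018608 (plus strand) held 1. The KLF3 peak of Dkc1 lay after the start, with its summit at 184 bp, and so outside the stretch shown. Nol8, on chr13:49652828-49653077 (plus strand), held 2 CACCC matches, 169 and 125 bases before the start, and no CACGTG. Imp4, on chr1:34439579-34439828 (plus strand), held no CACCC and 1 CACGTG, 121 bases before the start. The letters CACCC thus occurred both in members with a KLF3 peak and in Nol8, which had none.

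As a group the tested members were abundant and mostly listed at somewhat higher levels in J2E-KLF3-ER than in J2E. In the authors' deposited table, 41 of 52 had a log2 fold change above 0 and 11 below 0. Their median was 0.23, with quartiles of 0.03 and 0.39 and the whole range from -0.26 to 0.61. Over all tested genes the median was 0.03 and 53.4% lay above 0. Only Nol8 passed the authors' q-value threshold of 0.05 as rising, and no member passed it as falling, against 0.821% of all tested genes rising and 1.9% falling. The difference is thus a small shift of many members, and 1 call in 52 tested members is near the share of all tested genes called.

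At an unadjusted p below 0.05, a looser measure, 17 of 52 members lay above 0 and none below. Among all tested genes 7.93% did so as higher and 7.47% as lower. The log2 fold changes of these 17 ran from 0.34 to 0.61, and their q-values reached 0.322 per the authors' deposited table. No called gene within the members' range of J2E levels had a log2 fold change of smaller size than 0.49, and 3 members reached that: Nol8, Imp4 and Rrp7a. Most members' differences were therefore smaller than any difference that was called at such levels. At a q below 0.1, Imp4 and Npm1 joined Nol8, where 1.69% of all tested genes were called as rising and 2.87% as falling.

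**Figure D1:**
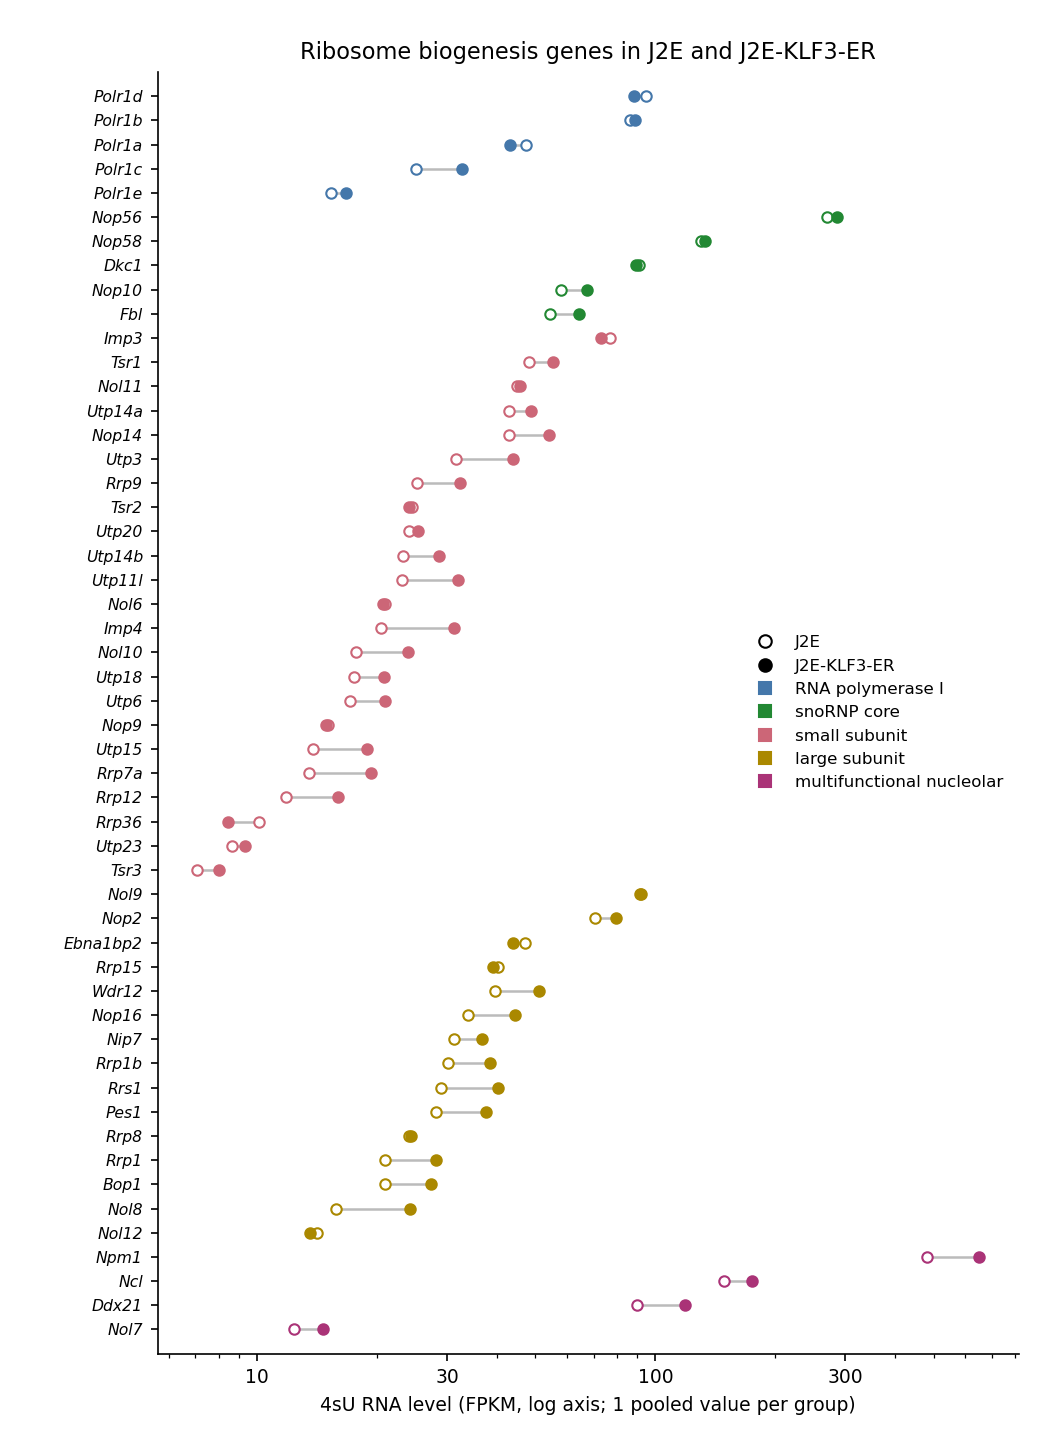
Newly made RNA of the 52 tested ribosome biogenesis genes, in FPKM on a log axis, with 1 row per gene grouped by role and ordered by J2E level; open circles are J2E and filled circles J2E-KLF3-ER, each 1 pooled value without error. Filled circles lie to the right of open circles in 41 rows, and Npm1 has the highest level.

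Per the authors' deposited table, levels in J2E ran from 7.05 FPKM for Tsr3 to 480 for Npm1, with a median of 28.6 against 12.4 over all tested genes. All but 5 members lay above that general median: 47 of 52 did. Npm1, Nop56, Ncl, Nop58 and Polr1d were the 5 highest and held 41.3% of the members' summed FPKM. That sum was 2722 in J2E and 3165 in J2E-KLF3-ER. Across the 52 members, level in J2E and log2 fold change had a Spearman rho of -0.25, given as a description since the genes share their libraries and the J2E value enters both measures. Over all tested genes the rho was -0.08. Of the 54 members, 18 share their locus in the table with another row, often an overlapping neighbour, so that reads may have been split between rows without a stated rule. Members alone in their locus had a median log2 fold change of 0.25.

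The RNA polymerase I genes were close to even. Of 5 subunit genes, 3 lay above 0 and 2 below, with a median log2 fold change of 0.04 per the authors' deposited table, and none was called. Polr1d, a subunit gene shared with RNA polymerase III, went from 95 to 88.3 FPKM (log2 fold change -0.11, q = 0.848 per the authors' deposited table). Polr1a, which encodes the largest subunit, went from 47.3 to 43.2 FPKM (-0.13, q = 0.755 per the authors' deposited table). Polr1b, encoding another core subunit, was listed at 86.4 and 88.8 FPKM per the authors' deposited table. Polr1c, the partner of Polr1d in both polymerases, stood apart at 25.1 and 32.7 FPKM, a log2 fold change of 0.38 with a q of 0.398 per the authors' deposited table. Polr1e, an accessory subunit gene, was listed at 15.3 and 16.7 FPKM per the authors' deposited table.

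The snoRNP core genes were among the highest and differed little. Nop56, a scaffold of the box C/D particles, went from 270 to 286 FPKM, a log2 fold change of 0.08 (q = 0.868 per the authors' deposited table). Nop58, its partner, was listed at 130 and 133 FPKM per the authors' deposited table, with 0.03 as its log2 fold change. Dkc1, the pseudouridine synthase gene of the box H/ACA particles that is mutated in dyskeratosis congenita, was listed at 91.1 and 89.5 FPKM per the authors' deposited table. The levels of these 3 genes were nearly equal in both lines. Fbl, the methyltransferase gene of the box C/D particles, and Nop10, of the box H/ACA particles, had log2 fold changes of 0.24 and 0.22 per the authors' deposited table. The median of the 5 was 0.08, and none was called or reached an unadjusted p below 0.05.

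Of 23 small subunit genes, 18 lay above 0 and 5 below, with a median log2 fold change of 0.25. None was called, and 8 had an unadjusted p below 0.05, all of them higher in J2E-KLF3-ER. Imp4, part of the U3 snoRNP complex that processes the 18S precursor, went from 20.5 to 31.2 FPKM, 1.52-fold, and missed the threshold with a q of 0.0597 per the authors' deposited table. Its partner Imp3, which acts in the same complex, went from 77 to 72.9 FPKM, a log2 fold change of -0.08 (q = 0.902 per the authors' deposited table). The genes of these partner proteins therefore lay on opposite sides of 0. Rrp7a, a processome gene, went from 13.5 to 19.3 FPKM, a log2 fold change of 0.52 (q = 0.202 per the authors' deposited table), and shares its locus with Serhl. Utp3, which encodes another processome protein, went from 31.5 to 43.8 FPKM (0.47, q = 0.164 per the authors' deposited table).

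The lowest log2 fold change of the whole group was that of Rrp36, needed for early cleavages of the precursor. It went from 10.1 to 8.47 FPKM, a log2 fold change of -0.26 with a q of 0.745 per the authors' deposited table. Further small subunit genes, named after their values were seen, had log2 fold changes of 0.47 (Utp11l), 0.45 (Utp15), 0.44 (Rrp12) and 0.43 (Nol10) per the authors' deposited table. Nol11, Nol6, Nop9 and Tsr2, the last a chaperone gene for a ribosomal protein, all lay between -0.02 and 0.03 per the authors' deposited table. Rrp9, a U3 particle gene, and Nop14, a processome gene, had log2 fold changes of 0.36 and 0.34 per the authors' deposited table, Utp6 0.29 and Tsr1, a late assembly GTPase-like factor gene, 0.20. Utp20 was at 0.08 and Tsr3, the lowest in level of all tested members at 7.05 and 8.01 FPKM, at 0.18 per the authors' deposited table. The small subunit genes thus ranged from -0.26 to 0.61, with members such as Utp6 and Tsr1 between the high and the low ones. Utp14b is a retrocopy of Utp14a, so reads may be shared between them; their log2 fold changes were 0.31 and 0.18 per the authors' deposited table.

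Of 15 large subunit genes, 12 lay above 0 and 3 below, with a median log2 fold change of 0.35, the highest median of the role groups. Nol8, a nucleolar RNA-binding protein gene at chr13:49748446-49774385 on mm9, rose from 15.8 to 24.2 FPKM, 1.53-fold, with a q of 0.0231 per the authors' deposited table. Rrs1, whose product helps to place the 5S particle in the large subunit, went from 28.9 to 40.2 FPKM (log2 fold change 0.47, q = 0.139 per the authors' deposited table). The genes of the Pes1, Bop1 and Wdr12 complex, named after their values were seen, had similar differences. Pes1 went from 28.2 to 37.6 FPKM, Bop1 from 20.9 to 27.3 and Wdr12 from 39.6 to 50.9 per the authors' deposited table. Their log2 fold changes were 0.42, 0.38 and 0.36 and their q-values 0.181, 0.494 and 0.291 per the authors' deposited table, so none was called.

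Nol9, the large subunit gene with the highest J2E level and a polynucleotide kinase gene of rRNA processing, was even at 91.7 and 91.8 FPKM per the authors' deposited table. Ebna1bp2, also a large subunit factor gene, went from 47 to 44 FPKM, a log2 fold change of -0.09 (q = 0.856 per the authors' deposited table). Rrp1 went from 21 to 28.1 FPKM, Nop16 from 33.9 to 44.3 and Rrp1b from 30.2 to 38.4 per the authors' deposited table, each at an unadjusted p below 0.05. Nip7 and Nop2, an rRNA methyltransferase gene, had log2 fold changes of 0.22 and 0.18 per the authors' deposited table, and Rrp8, Rrp15 and Nol12 lay between -0.05 and 0.02. These genes, too, were named after their values were seen. The large subunit genes thus ranged from -0.09 to 0.61.

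All 4 multifunctional nucleolar genes lay above 0. Npm1, which encodes the abundant nucleolar chaperone nucleophosmin, went from 480 to 651 FPKM, a log2 fold change of 0.44 with a q of 0.0982 per the authors' deposited table. Npm1 has many processed copies in the genome, so its level is uncertain. Ncl, encoding nucleolin, went from 149 to 175 FPKM (0.24, q = 0.481 per the authors' deposited table). Ddx21, an RNA helicase gene named after its values were seen, went from 89.9 to 119 FPKM (0.41, q = 0.129 per the authors' deposited table). Nol7, in a locus shared with Ranbp9, was listed at 12.4 and 14.6 FPKM per the authors' deposited table. Of the untested members, Nol3 was listed at 0.617 and 0.71 FPKM and Nol4 at 0.199 and 0.244 per the authors' deposited table.

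Introns of nucleolar protein genes often carry snoRNAs, and 4 members shared their locus with a snoRNA row. In the Ncl locus, Snora75 was listed at 498 and 348 FPKM and Snord82 at 2943 and 3353, with q-values of 0.949 and 0.970 per the authors' deposited table. In the Nop56 locus, Snord110 was listed at 449 and 160 FPKM with a q of 0.869 per the authors' deposited table, and Snord57, untested, at 218 and 253. In the Nop58 locus, Snord11 was listed at 0 and 268 FPKM, untested, and Snord70 at 0 in both lines, as was Snord91a in the Tsr1 locus, per the authors' deposited table. None of these rows was called, and their values went in both directions.

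**Figure D2:**
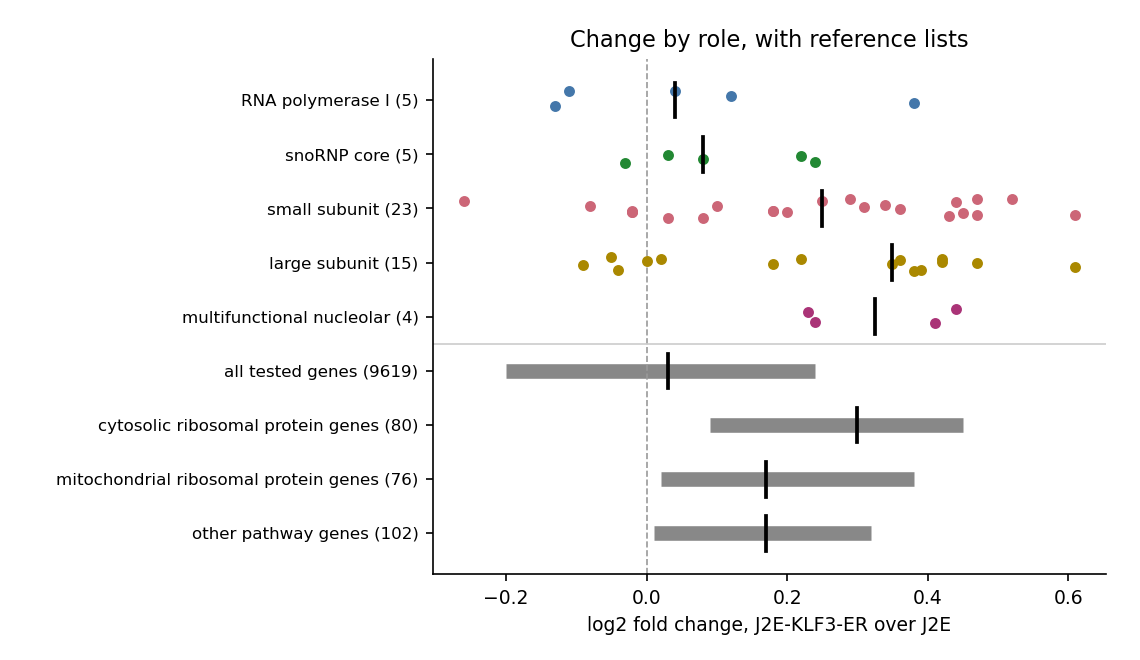
Log2 fold change of J2E-KLF3-ER over J2E for each tested member (points, spread vertically for visibility) by role, and below the line the span between quartiles (grey bar) of 4 reference lists; black ticks are medians and numbers in brackets are tested genes. The large subunit median is 0.35 and the RNA polymerase I median 0.04, while that of all tested genes is 0.03.

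Other genes of the same pathway, from a list of 105 of which 102 were tested, also lay mostly above 0, over a wider range of -1.60 to 0.75. Of these, 80 were above 0 and the median log2 fold change was 0.17 per the authors' deposited table. None was called as rising, and 1, Myc, was called as falling, from 9.67 to 3.18 FPKM (log2 fold change -1.60, q = 0.00408 per the authors' deposited table). At an unadjusted p below 0.05, 18 lay above 0 (17.6%) and 1 below (0.98%). Of the members 32.7% lay above 0 at that threshold, and of all tested genes 7.93%. Among the highest were Pno1 (0.75), Fcf1 (0.71) and Rpf2 (0.63), assembly factors of the small, small and large subunit, as log2 fold changes per the authors' deposited table; their q-values were 0.149, 0.172 and 0.116. The polymerase I factor genes Ubtf and Rrn3 had log2 fold changes of -0.16 and 0.29 per the authors' deposited table. The lower level of Myc thus stood beside ribosome biogenesis genes that were mostly listed slightly higher; its part in their values was not tested.

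Ribosomal protein genes were set beside the members. Of 80 tested cytosolic ribosomal protein genes 69 lay above 0, with a median log2 fold change of 0.30 per the authors' deposited table. Of the 80, 7 were called as rising and none as falling, against 0.821% and 1.9% of all tested genes. Their J2E levels went down to 0.00403 FPKM and their log2 fold changes ran from -0.71 to 10.93 per the authors' deposited table. These genes have many processed copies, so their values are uncertain. Of 76 tested genes for proteins of the mitochondrial ribosome, which is built outside the nucleolus, 58 lay above 0, with a median of 0.17, and none was called. At an unadjusted p below 0.05, 28 of the 80 (35%) and 7 of the 76 (9.21%) lay above 0, against 32.7% of the members and the 7.93% of all tested genes. Whether the members differ from these lists was not tested.

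Chromosome of residence moved with the members' values. Over all tested genes the median difference was 0.11 (log2) on chromosomes 1 and 10 to 19 and -0.03 on chromosomes 2 to 9 and X, a grouping chosen after the values were seen. The 31 tested members on the former chromosomes had a median of 0.35, with 27 above 0 (87.1%) and 14 higher at an unadjusted p below 0.05 (45.2%), against 62.8% and 11.8% of all tested genes there. The 21 on the latter had a median of 0.08, with 14 above 0 (66.7%) and 3 higher at an unadjusted p below 0.05 (14.3%), against 44.5% and 4.31%. After subtraction of each chromosome's own median the members' median was 0.18, and 41 of 52 members lay above the median of their chromosome. Nol8 lies on chromosome 13, where the median of all tested genes was the highest, 0.22. Less its chromosome's median, Nol8 stood at 0.40, so that its size depends in part on this offset. A call cannot be made from the centred value, since the called differences were not centred. Centring moved other members by over 1.5 times as well, Rrs1 from 0.47 to 0.31, Utp18 from 0.25 to 0.15 and Ncl from 0.24 to 0.08.

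**Figure D3:**
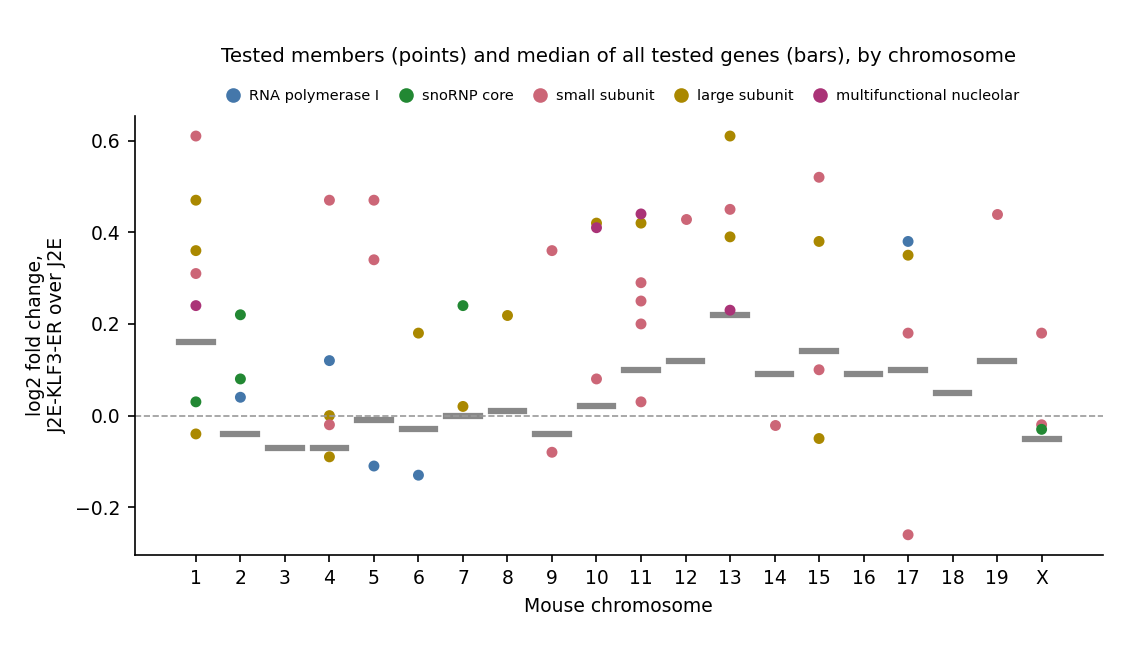
Log2 fold change of each tested member (points, coloured by role) by mouse chromosome, with the median of all tested genes on that chromosome as a grey bar. Members lie above their grey bar in 41 of 52 cases, and the pooled median of members is 0.35 on chromosomes 1 and 10 to 19 and 0.08 on the others, with single chromosomes such as 5 and 14 going against that order.

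A KLF3 peak was assigned to 9 of 52 tested members, 17.3% with a 95% exact (Clopper-Pearson) interval of 8.23 to 30.3%, against 32.3% of all tested genes. A KLF1 peak was assigned to 4, 7.69% (2.14 to 18.5%), against 19.1%. Only Nol11 had both, 1.92% (0.0487 to 10.3%), against 13% of all tested genes. Among tested genes within the members' range of J2E levels, the KLF3 and KLF1 shares were 34.4% and 19.8%. With untested genes included, the KLF3 comparison turned: 10 of 54 members (18.5%) had a peak, against 16.1% of all 23309 named genes, while for KLF1 4 of 54 (7.41%) did, against 11.9%. The lower KLF3 share of members therefore holds only among tested genes. That turn came from the background, which went from 32.3% to 16.1% with untested genes, while the members' share went from 17.3% to 18.5%. These intervals cover counting error only, each list comes from 1 library of 3 pooled immunoprecipitations, and binding has no replicate test.

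Among the reference lists, KLF3 peaks were assigned to 15% of tested cytosolic ribosomal protein genes (8 to 24.7%), 17.1% of mitochondrial ones (9.43 to 27.5%) and 20.6% of the other pathway genes (13.2 to 29.7%). The intervals overlap those of the members, and the differences were not tested.

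**Figure D4:**
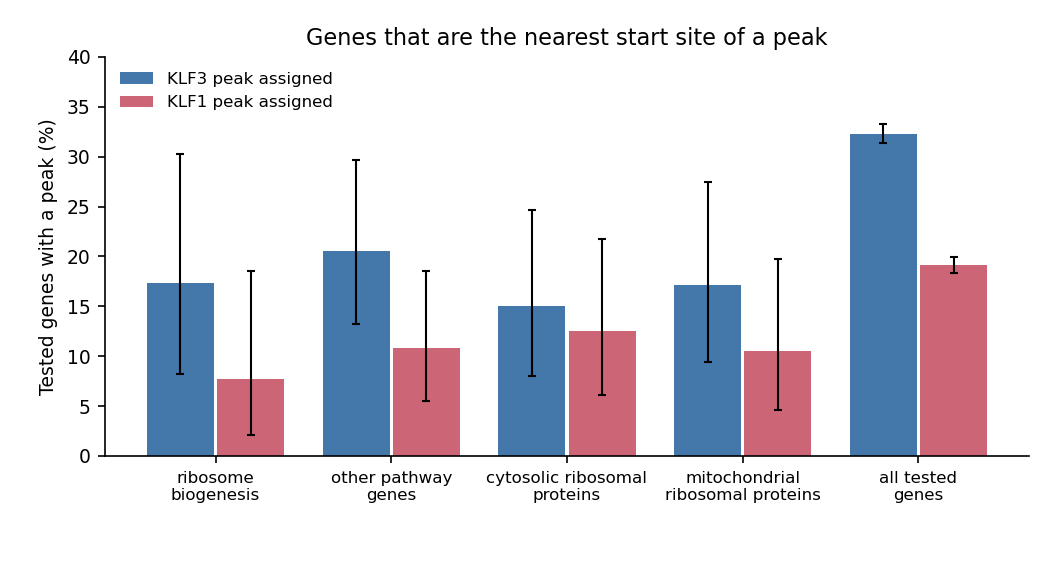
Percent of tested genes that are the nearest start site of a KLF3 peak (blue) or a KLF1 peak (red), for the members and 4 reference lists, with 95% exact binomial intervals as bars that cover counting error only. The members stand at 17.3% for KLF3 and 7.69% for KLF1, and all tested genes at 32.3% and 19.1%.

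The 10 KLF3 peaks of the 54 members lay at start sites and were of middling height. All 10 had a summit within 1 kb of the start, as did 81.2% of the whole KLF3 list, and the farthest was 238 bp away. Enrichment, the authors' fold value per peak, ran from 5.38 to 10.3 with a median of 8.06, against 7.94 for the whole list and a list maximum of 47.5. The highest was at the Npm1 promoter, chr11:33063094-33063402 on mm9, with its summit 23 bp upstream of the start, enrichment 10.3 and rank 1352 of 4579. Next came the Utp18 promoter, chr11:93747018-93747281 (9.97, 81 bp upstream), and the Nol11 promoter, chr11:107050551-107050868 (8.42, 13 bp upstream). Utp18 encodes a processome protein and Nol11 a processome partner that also serves rDNA transcription. The members' KLF3 peaks thus lay near the median height of the list, 6 of the 10 above it.

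The Dkc1 peak, chrX:72341279-72341485, was annotated as UTR with its summit 184 bp inside the gene and an enrichment of 8.41. The Polr1e promoter peak, chr4:45031333-45031578, had an enrichment of 8.19 and a summit 45 bp upstream. Bop1, Ebna1bp2 and Rrp8 had promoter peaks and Rrp36 an intron peak, with enrichments between 5.46 and 7.94, and the untested Nol3 had the lowest at 5.38. The Rrp36 peak lay 238 bp inside the gene.

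**Figure D5:**
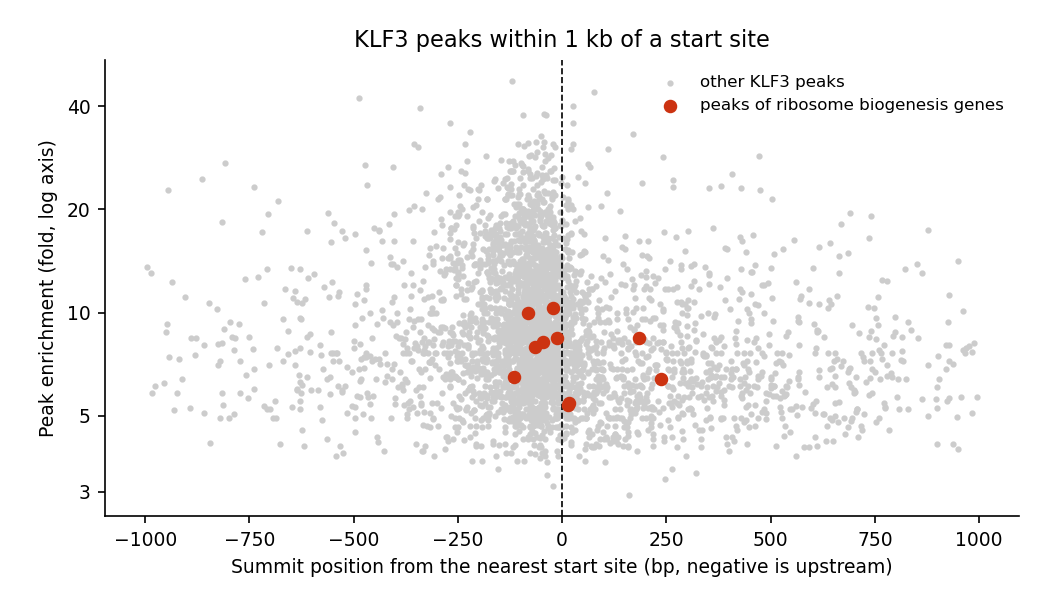
Enrichment of KLF3 peaks (log axis) against the position of their summit from the nearest start site in bp, negative being upstream, for peaks within 1 kb; red points are the 10 peaks of ribosome biogenesis genes and grey points the other peaks. The red points lie between 5.38 and 10.3, within 238 bp of the start.

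The 9 tested members with a KLF3 peak centred close to 0, with single members to both sides. Their median log2 fold change was 0.03, with 6 above 0, and that of the 43 members without a KLF3 peak was 0.24, with 35 above 0. Over all tested genes the medians were -0.01 with a KLF3 peak and 0.05 without. The 9 values ran from -0.26 for Rrp36 to 0.44 for Npm1 per the authors' deposited table. Bop1 was at 0.38, Utp18 at 0.25, Polr1e at 0.12, Nol11 at 0.03, Rrp8 at 0.02, Dkc1 at -0.03 and Ebna1bp2 at -0.09 per the authors' deposited table. By this nearest-start assignment 1 of the 17 members at an unadjusted p below 0.05 had a KLF3 peak, Npm1, as had 192 of the 763 genes higher at that threshold in the whole table. Utp15, also among the 17, had a KLF3 peak near its 5′ end that was assigned to a neighbour. The difference between members with and without a peak was not tested, and the ranges overlap.

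Of the 4 KLF1 peaks at members 1 had its summit within 1 kb of the start, as had 41% of the whole KLF1 list. The highest, with an enrichment of 24.2 and rank 334 of 3800, was a distal site 8707 bp upstream of Nop56 at chr2:130091270-130091626 on mm9. The Nol11 KLF1 peak lay 17530 bp upstream, the Tsr2 peak was in an intron, 1793 bp from the start, and the Utp23 peak was annotated as coding sequence, 250 bp from the start. Their enrichments were 5.89, 5.37 and 7.5, below the list median of 9.72. Utp23, a processome gene, was listed at 8.67 and 9.31 FPKM and Tsr2 at 24.5 and 24.1 FPKM per the authors' deposited table. The members with a KLF1 peak thus differed little between the lines, and the KLF1 peaks come from other cells than the RNA.

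None of the 4 KLF1 peaks assigned to members overlapped a KLF3 peak; over the whole KLF1 list 39.3% did. Of the 10 KLF3 peaks of members 1 shared 1 bp or more with a KLF1 peak, that of Ebna1bp2 at chr4:118292962-118293390, whereas 34% of all KLF3 peaks did. The KLF1 peak there was assigned to the neighbour Wdr65, and the same KLF3 interval is listed a second time under Wdr65 with another summit. The Nol11 peaks of both factors were 17517 bp apart.

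Assignment to the nearest start can give a member's promoter to a close neighbour. Therefore the 27 tested members with a known strand and a locus of their own were also searched for any summit within 1 kb of their 5′ end. KLF3 peaks were found at 6 (22.2%, 8.62 to 42.3%) against 33.2% of all 5755 tested genes that met the same conditions, and KLF1 peaks at 1 (3.7%, 0.0937 to 19%) against 12.1%. Peaks gained in this way were a KLF3 peak of enrichment 13.5 assigned to Ankra2, whose summit was 102 bp from the Utp15 5′ end, and peaks of both factors assigned to Lnx2, 765 bp and 474 bp from that of Polr1d. Both members are listed without a peak of their own.

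Of the 52 tested members 42 matched a RefSeq promoter entry, 250 bases before to 50 after the start, with 48 entries in all. Bop1, Fbl, Nol6, Npm1, Rrp12, Rrs1, Tsr3, Utp11l, Utp23 and Utp6 had none. CACCC on either strand was in 64.6% of the members' entries (95% exact interval 49.5 to 77.8%), in 61.3% of 8877 entries of tested genes and in 57.5% of all 32851 entries. The longer form CCNCNCCC, which can overlap CACCC, was in 54.2% (39.2 to 68.6%), 66.7% and 49.5%. CACGTG was in 20.8% of the members' entries (10.5 to 35%), 10.9% of those of tested genes and 7.15% of all. That share rests in part on bases after the start: in the 250 bases before it the shares were 12.5% (4.73 to 25.2%), 9.06% and 6.02%, and in the last 100 bases before it 8.33% (2.32 to 20%), 5.08% and 3.17%. These windows were chosen after the data were seen. Median GC content of the bases before the start was 57% for members and 60% for tested genes. A match describes letters only, entries of 1 gene overlap, and the shares were not tested against each other.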

How the data were processed

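RNA captured after 4sU labelling was compared between 3 J2E and 3 J2E-KLF3-ER libraries, and peaks of 1 KLF3 and 1 KLF1 immunoprecipitation were set beside it. The submitters' processing notes name build mm9 and the tools TopHat2 2.0.10, MACS2 and MACS 1.4.2; the role of each, and the tool behind the q-values, were not given in the sources used here. The authors deposited, per the file headers, 1 pooled FPKM value per group with log2 fold changes (J2E-KLF3-ER over J2E), p-values and q-values, and a test statistic, a score left unused. Each deposited peak carries an enrichment ratio (fold). Total counts per library are unknown.

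The members and lists were chosen with earlier results of these data known. The design foresaw values per library; as the table holds none, its fallback, the authors' q-value below 0.05 over all 9619 tested genes, was the call. Adjusting the deposited p-values by Benjamini-Hochberg returned those q-values within 5.26e-07. Lists are described by counts and medians, without a set test. The 93 blank rows were dropped. Peaks belong to the nearest start site given by the authors; overlap means at least 1 bp. Strand for the search at 5′ ends came from RefSeq promoters (GRCm38.p6), and no coordinates were converted. Genes were named by rule: called members, the 5 largest differences each way at 1 FPKM or more, the 5 highest levels, the 5 highest peaks per factor, members whose KLF1 peak overlaps a KLF3 peak (none) and the highest level of each role; every further member was named after its values were seen. Alternatives covered thresholds, pseudocounts of 0.1 and 1, centring, peak distance and height, and motif windows. Adjustment and overlap code was tested on simulated data. Versions were Python 3.11.15, SciPy 1.17.1, NumPy 2.4.6, pandas 2.3.3, matplotlib 3.10.9 and statsmodels 0.14.6.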

Additional observations from a re-analysis of the deposited data

How the results depend on the processing

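The members' median log2 fold change stayed above 0 under each alternative run, from 0.08 on chromosomes 2 to 9 and X alone to 0.35 on chromosomes 1 and 10 to 19 alone, both added after seeing the data. It was 0.22 with a pseudocount of 1, 0.20 after centring on all tested genes and 0.18 after centring within chromosomes. Rising members numbered 3 at a q below 0.1 and 17 at an unadjusted p below 0.05; falling members stayed at 0 under every threshold tried. Over all tested genes these thresholds gave 163 and 763 rising and 276 and 719 falling genes. Of the 22 genes named by rule, centring on all tested genes changed the sign of Nol9. Centring within chromosomes changed that of Nop58, Nol11, Dkc1, Utp23 and Tsr2, none of them called. Other members were not examined singly. Over all tested members 11 lay below 0 before centring, 13 after centring on all tested genes and 11 after centring within chromosomes. Nol8, the called member, went from 0.61 to 0.40 with centring within chromosomes. The share of tested members with a KLF1 peak was 1.92% within 1 kb of the start (10.7% of all tested genes), and also 1.92% when only peaks above the list's median enrichment were kept (10.9%). Either limit left 0% of the 52 tested members with peaks of both factors, against 8.83% and 5.83% of all tested genes. An approximate upper bound for 0 of 52, 3 divided by 52, is 5.77%. It is not one of the exact intervals used above, and is too close to 5.83% to tell them apart. Above both medians 0 KLF3 peaks of members overlapped a KLF1 peak. CACCC was in 35.4% of the members' entries when only the 100 bases before the start were read (28.7% of tested genes'), and CACGTG in 8.33% there and in 12.5% of the 250 bases before it, both added after seeing the data. No paired analysis was possible because the table holds pooled values and its columns carry no replicate number; for the same reason no library could be left out. What a pooled value without depth limits is the precision: no error can be given for any level. At the members' levels, no difference smaller than 0.49 on the log2 scale was called. That value is the smallest called difference seen and not a limit of detection, as Imp4 (0.61) and Rrp7a (0.52) lay above it uncalled.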
